A study of Mus musculus with 2 samples.

Results

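The receptor for colony stimulating factor 1 and the genes around it were compared between 2 populations of microglia sorted from mouse retina at postnatal day 5. The set was given by name as 10 genes: the receptor *Csf1r*, its ligands *Csf1* and *Il34*, the cytokine receptors *Csf2ra*, *Csf2rb* and *Csf3r*, the adaptor *Grb2*, the ubiquitin ligase *Cbl*, and the effectors *Akt1* and *Stat5b*. Of these, 9 had a row among the 13549 genes of the count table, and *Il34*, which had none under its name or identifier, was not analysed here. All animals carried CD11c-Cre-gfp;Rosa-TDTom, in which the promoter of CD11c (an integrin subunit) drives a Cre-GFP fusion and Cre permanently turns on a TdTomato reporter. The Cd11c-active group was GFP+TdTom+ (4041 cells), thus using the promoter when sorted. The Cd11c-lineage group was GFP-TdTom+ (5441 cells), by design cells that had used it earlier. Both came from 8 pooled retinas, with female and male given as 4 each, and no treatment other than the sort is named. Each group gave 1 library, so no difference below has a replicate check, no test of the groups could be run, and every interval covers counting error only.

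CSF1R is a receptor tyrosine kinase of the macrophage lineage on which microglia depend for survival and proliferation. CSF1 and IL-34, unrelated in sequence, bind the same receptor, and IL-34 is made largely by neurons. The active receptor recruits GRB2 and PI3-kinase, which lead to ERK and AKT signalling, and is removed from the surface after ubiquitination by CBL. The receptors for CSF2 (GM-CSF) and CSF3 (G-CSF) belong to another family, lack a kinase of their own and signal through JAK kinases to STAT factors, STAT5 among them. 

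Promoter sequences (the 250 bases before the start site) are shown for the members with the highest ratio (*Csf1*) and the lowest (*Cbl*), and for a pair of myeloid receptors between them. They are from RefSeq on GRCm38.p6, while the counts were made on GRCm39 per the submitters' processing notes. Of the 10 genes, 7 matched the promoter table, and *Csf1r*, *Csf2rb* and *Il34* did not. The windows are chr3:107760470-107760719, minus strand, for *Csf1*; chr4:126024409-126024658, plus strand, for *Csf3r*; chr19:61228419-61228668, minus strand, for *Csf2ra*; and chr9:44234047-44234296, minus strand, for *Cbl*. Capitals mark matches, on either strand, to 7 motifs: the PU.1 core GAGGAA, SP1 GGGCGG, CRE TGACGTCA, NF-kB GGACTTTCC, AP-1 TGANTCA, STAT TTCNNNGAA and the letters TATAAA of the TATA box.
Csf1: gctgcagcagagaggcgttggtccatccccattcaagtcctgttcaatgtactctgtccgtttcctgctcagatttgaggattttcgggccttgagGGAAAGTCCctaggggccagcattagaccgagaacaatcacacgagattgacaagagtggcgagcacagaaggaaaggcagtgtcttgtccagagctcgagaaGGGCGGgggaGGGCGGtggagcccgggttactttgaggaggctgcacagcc
Csf3r: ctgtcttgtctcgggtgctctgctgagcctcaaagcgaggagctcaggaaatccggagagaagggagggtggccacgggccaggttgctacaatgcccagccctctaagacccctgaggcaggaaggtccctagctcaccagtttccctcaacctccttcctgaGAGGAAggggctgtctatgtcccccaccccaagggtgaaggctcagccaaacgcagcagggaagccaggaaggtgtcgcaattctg
Csf2ra: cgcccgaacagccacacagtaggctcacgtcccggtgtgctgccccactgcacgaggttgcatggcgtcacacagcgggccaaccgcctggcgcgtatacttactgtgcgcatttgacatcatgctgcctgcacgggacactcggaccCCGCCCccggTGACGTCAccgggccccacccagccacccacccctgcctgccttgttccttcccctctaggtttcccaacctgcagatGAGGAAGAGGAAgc
Cbl: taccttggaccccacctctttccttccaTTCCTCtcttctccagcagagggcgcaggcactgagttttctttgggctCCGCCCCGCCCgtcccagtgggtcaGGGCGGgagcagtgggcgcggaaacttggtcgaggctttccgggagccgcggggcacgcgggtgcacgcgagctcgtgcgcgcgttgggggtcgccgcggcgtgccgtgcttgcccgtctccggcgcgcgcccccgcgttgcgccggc

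In the *Csf1* window the reverse complement of the NF-kB letters began 154 bases before the start, and SP1 letters began at 51 and 41. Among the 32851 promoter windows of the table, 0.283% held this NF-kB sequence and 32.7% the SP1 sequence. The PU.1 core, the recognition letters of a factor that drives many myeloid genes, began 86 bases before the start in *Csf3r* and 14 and 8 bases before it in *Csf2ra*, in tandem. The core was found in 23.3% of all windows, and *Cbl* also held it, as its reverse complement at 222. *Csf2ra* held the CRE letters at 92 (1.55% of windows) and *Cbl* held 3 SP1 matches, of which those at 173 and 168 overlap. The CpG count was 33 in the *Cbl* window, 17 in *Csf2ra*, 10 in *Csf1* and 6 in *Csf3r*, against a median of 6 over all windows. These 4 windows had no match to the AP-1, STAT or TATA letters (found in 6.75%, 7.02% and 12.4% of windows). A match describes letters and not binding.

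The libraries held 12943998 (Cd11c-active) and 13402625 (Cd11c-lineage) reads. Every ratio puts Cd11c-active over Cd11c-lineage and uses TMM scaling, which placed it 0.14 higher on the log2 scale than library totals did. All 14 microglial markers checked, among them *Cx3cr1*, *P2ry12* and *Tmem119*, were present in both libraries, with 0 past 2-fold and a median log2 ratio of 0.02. Markers of other cells were also present and differed. The 10 endothelial markers were all higher in Cd11c-active, with a summed level of 820 CPM (TMM-scaled read counts) against 73.7 and with 6 of them, *Cldn5*, *Flt1*, *Tek*, *Esam*, *Plvap* and *Vwf*, at 0 reads in Cd11c-lineage. Border macrophage markers with a row were all lower in Cd11c-active, 5 of 5, at 21.2 against 131 CPM, and *Cd163*, *Lyve1*, *F13a1* and *Ms4a7* had 0 reads there. Retinal neuron markers summed to 153 and 343 CPM, with 12 of 14 lower in Cd11c-active. Dendritic cells use CD11c as well. Of their 7 markers, *Zbtb46* had 200 and 0 reads (at least 75.9-fold higher in Cd11c-active) and *Batf3* had 39 and 14. *Siglech*, which the microglial list also holds, had 2139 and 3539. Of genes with 200 to 399 reads, the range of *Zbtb46*, 10.1% had 0 reads in 1 library. Which cells gave the *Zbtb46* reads was not tested. *Flt3*, *Xcr1*, *Clec9a* and *Cd209a* had no row, and the dendritic list summed to 193 and 253 CPM, or 19.4 and 0.996 CPM without *Siglech*. In such bulk material, fewer cells of a type and less RNA per cell cannot be told apart.

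Of the 9 measured members, 0 were past 2-fold in either direction. Of the 13037 genes reaching 20 reads in the libraries together, 44.9% were past 2-fold (23.3% higher and 21.6% lower), and among the 4619 genes with at least 1000 reads, the comparable background since each member had at least 1594, 9.57% were (5.43% higher and 4.14% lower). At 1.5-fold *Csf1* was higher and *Cbl* was lower, 2 of 9, against 29.1% of genes with at least 1000 reads (14.6% higher and 14.5% lower). After the trend with length and GC was removed *Cbl* was at -0.41, no longer past 1.5-fold. The share of members past either fold was thus near or under that of genes of like depth. The median log2 ratio of the 9 was 0.14, with 5 above 0 and 4 below, beside -0.02 for genes with at least 1000 reads. The 95% counting intervals of all 9 excluded 0, as they do for small differences at this depth. As a second yardstick, each ratio was set beside the 5th to 95th percentile of genes in the same range of reads, and 8 of 9 members lay inside it, *Csf1* being the exception.

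**Figure D1:**
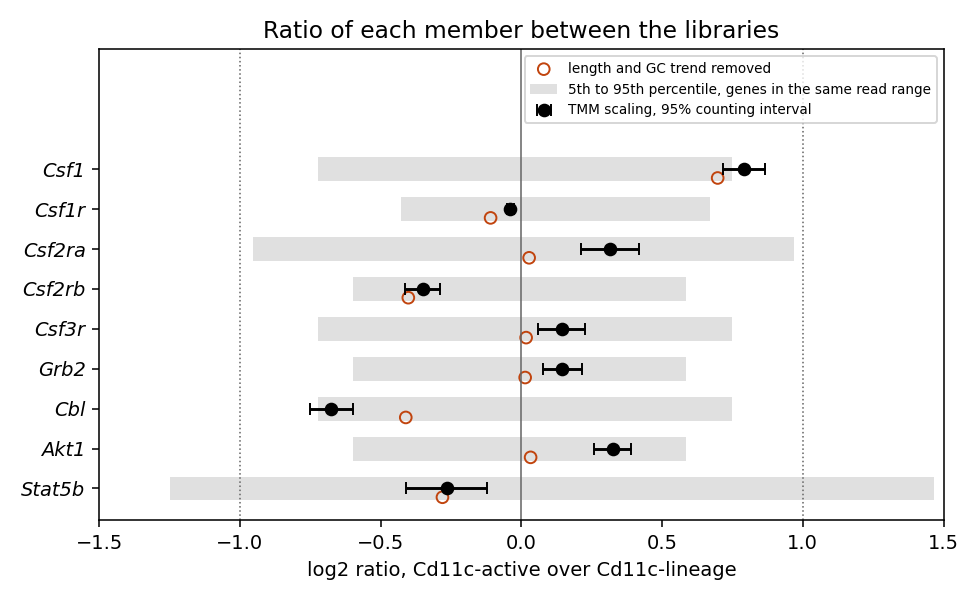
Log2 ratio of each member, Cd11c-active over Cd11c-lineage (horizontal axis), with its 95% counting interval; grey bars span the 5th to 95th percentile of genes in the same range of reads, open circles show the ratio after the length and GC trend was removed, and dotted lines mark 2-fold. All 9 members sit inside 2-fold, and Csf1 is the one whose TMM ratio lies outside its grey bar.

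The receptor itself was nearly the same in both libraries. *Csf1r* (ENSMUSG00000024621) gave 79075 Cd11c-active and 92452 Cd11c-lineage reads, at levels of 6405 and 6580 CPM. It ranked as number 7 by reads among all genes of the table in either library, taking 0.611% (Wilson 95% interval 0.607 to 0.615) and 0.690% (0.685 to 0.694) of all reads. The log2 ratio was -0.04 (counting interval -0.05 to -0.03), or 1.03-fold lower in Cd11c-active. Its value moved to -0.18 under library totals. Per length, at 1362 and 1400 RPKM (CPM per kilobase of the longest annotated transcript), *Csf1r* stood 11.1-fold (Cd11c-active) and 14.3-fold (Cd11c-lineage) above *Akt1*, the next member in both libraries.

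*Csf1* (ENSMUSG00000014599), the secreted ligand, had the ratio farthest from 0 of the set under TMM, while under library totals *Cbl*, at -0.81, was farther from it than *Csf1*. Cd11c-active gave 3576 reads and Cd11c-lineage 2352, at levels of 290 and 167 CPM. The Cd11c-active library was thus the higher one, by 1.73-fold (counting interval 1.64 to 1.82), a log2 ratio of 0.79. The 5th to 95th percentile of the 975 genes with 3200 to 6399 reads ran from -0.72 to 0.75, so *Csf1* lay just past its upper end, and 3.28% of those genes were past 2-fold. Under library totals the ratio was 0.65, and 0.70 after the ratio was corrected for a linear trend with length and GC of the transcript. The ligand-to-receptor ratio differed accordingly: per length, *Csf1r* was 19.6-fold above *Csf1* in Cd11c-active and 34.9-fold above it in Cd11c-lineage. Endothelial markers, given above, were also higher in Cd11c-active, and their part in the *Csf1* difference was not tested.

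**Figure D2:**
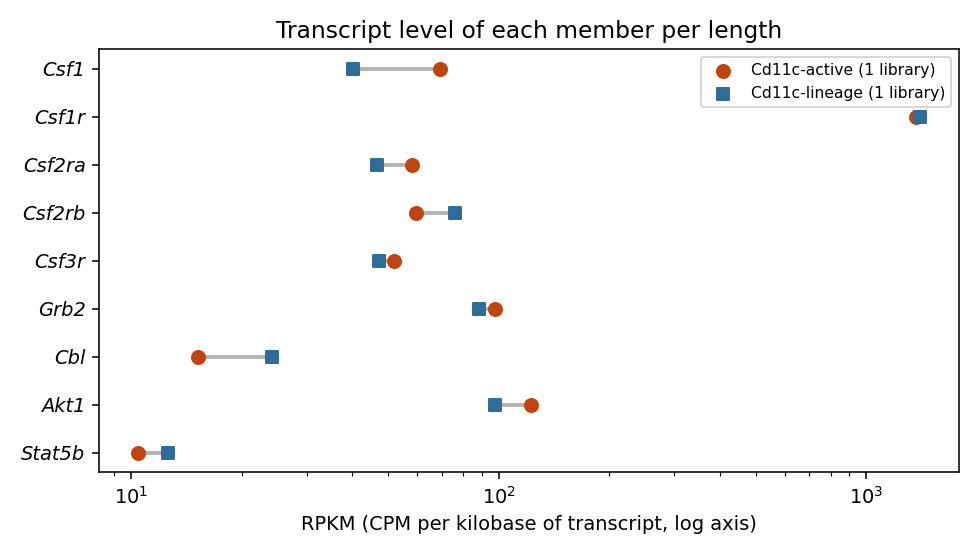
Level of each member in RPKM (log axis), with 1 point per library. Csf1r, at 1362 and 1400, stands apart from the other 8, which lie between 10.5 and 123, and the widest gaps are those of Csf1 and Cbl.

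Among the cytokine receptors, *Csf2ra*, the ligand-binding alpha chain for GM-CSF, had 1637 and 1497 reads (133 and 107 CPM), a log2 ratio of 0.32 (0.21 to 0.42). *Csf2rb*, the shared signalling beta chain, had 3612 and 5240 reads (293 and 373 CPM), a log2 ratio of -0.35 (-0.41 to -0.29). The ratio of the alpha chain was thus above 0, falling to 0.03 after trend removal, and that of the beta chain below 0. Per length their levels were close to equal in Cd11c-active (58.2 and 59.7 RPKM) and apart in Cd11c-lineage (46.8 and 76.1 RPKM). *Csf2rb* shares 18.4% of its 50-base windows with *Csf2rb2*, a neighbouring copy known as the IL-3-specific beta chain, so reads could be split or lost between them. *Csf2rb2* had 1868 and 2301 reads and a log2 ratio of -0.11 (-0.20 to -0.03), and the pair summed to 5480 and 7541 reads, a ratio of -0.27 (-0.32 to -0.22). *Csf3r*, the G-CSF receptor best known from neutrophils, had 2237 and 2305 reads (181 and 164 CPM), a ratio of 0.14 (0.06 to 0.23) that fell to 0.01 under library totals. Transcripts of other genes hold 11.2% of its windows. Of 7 monocyte and neutrophil markers with a row, 5 (*S100a8*, *S100a9*, *Plac8*, *Mmp8* and *Cxcr2*) had 0 reads in Cd11c-active, while *Ccr2* had 35 and 0 and *Mpo* 128 and 112, and the whole list summed to 13.2 and 37.1 CPM. The part of dendritic and other cells in these receptor reads was not tested. *Il3ra*, the IL-3 alpha chain, had 106 and 0 reads, at least 40.2-fold higher against a floor of 3 reads in the empty library. *Il5ra*, *Csf2*, *Csf3*, *Il3* and *Il5* had no row and were not analysed here.

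*Grb2*, the adaptor that links the phosphorylated receptor to the RAS exchange factor SOS, had 3268 and 3361 reads (265 and 239 CPM). Its log2 ratio was 0.15 (0.08 to 0.22), and 0.01 under library totals. Of the 21 adaptors and scaffolds listed, 19 had at least 20 reads, with a median of -0.11, 2 past 2-fold higher and 2 lower, beside 23.3% and 21.6% of all genes with at least 20 reads. Among the 11 adaptors with at least 1000 reads, 0 were higher and 1 was lower, beside 5.43% and 4.14% at that depth. *Sh2b3*, which restrains JAK signalling, had the next most reads, 2293 and 2582, with a ratio of 0.02 (-0.07 to 0.10), an interval that includes 0. *Dok1*, an inhibitory docking protein, had 412 and 1072 reads, a ratio of -1.19 (-1.36 to -1.03), and was the adaptor past 2-fold with at least 1000 reads. It stayed past 2-fold under library totals (-1.33) and after trend removal (-1.51). It lay inside the span of its read range (-1.25 to 1.47).

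*Cbl*, the ubiquitin ligase that marks the active receptor for degradation, was lower in Cd11c-active, at 2129 against 3868 reads (172 and 275 CPM). The log2 ratio was -0.67 (-0.75 to -0.60), so the Cd11c-active level was 0.626-fold (0.594 to 0.661) that of Cd11c-lineage, inside the -0.72 to 0.75 of its read range. Under library totals it was -0.81, and after trend removal it was -0.41. The longest annotated *Cbl* transcript has 11372 bases and 46.9% GC, the longest and most AT-rich of the 9 members. *Cblb*, its close relative, had 155 and 282 reads and a ratio of -0.67 (-0.97 to -0.39), and no 50-base window of *Cblb* was found in another gene's transcripts. Among genes with 400 to 799 reads, such as *Cblb*, 39.2% were past 2-fold. The list of ligases and phosphatases that limit the receptor had 19 members with at least 20 reads, a median of -0.06, 0 past 2-fold higher and 1 lower, beside the same 23.3% and 21.6%. That one was *Cbll1*, a ligase named for its likeness to CBL, with 125 and 493 reads and a ratio of -1.79 (-2.09 to -1.51). Among the 14 genes of this list with at least 1000 reads, 0 were higher and 0 lower, beside 5.43% and 4.14% at that depth. The pair with the most reads in the list lay near 0: *Inpp5d*, the lipid phosphatase SHIP1, had 11069 and 12102 reads (ratio 0.06, interval 0.02 to 0.10, and -0.08 under library totals), and *Ptprj*, a receptor phosphatase, had 7574 and 8735 (-0.02, interval -0.06 to 0.03, and 0.12 after trend removal). *Ptprc* (CD45), next in reads with 5207 and 8789, had -0.57, below the -0.43 to 0.67 of its read range, and -0.30 after trend removal.

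*Akt1*, the serine-threonine kinase at the centre of survival signalling, had 4075 and 3704 reads (330 and 264 CPM), a log2 ratio of 0.32 (0.26 to 0.39). *Akt2* went the other way, with 1097 and 1945 reads and -0.64 (-0.75 to -0.53). After trend removal *Akt1* was at 0.03 and *Akt2* at -0.73. Of the 50-base windows of *Akt2*, 15.95% also occur in its pseudogene copy *Akt2-ps*. The PI3K and AKT list of 26 genes, all with at least 20 reads, had a median of -0.26, with 10 above 0 and 16 below, beside 0.01 for all 13037 genes. Of the 26, 1 was past 2-fold higher and 3 lower, beside 23.3% and 21.6% of the 13037 genes. Among the 20 with at least 1000 reads, 0 were higher and 1 was lower, beside 5.43% and 4.14% at that depth. *Pik3r1*, the main regulatory subunit of PI3-kinase, had 2720 and 5834 reads, a ratio of -0.91 (-0.98 to -0.85), below the -0.60 to 0.59 of the 457 genes with 6400 to 12799 reads. It was -1.05 under library totals and -0.71 after trend removal. *Rictor*, the scaffold of mTOR complex 2, which phosphorylates AKT, had 403 and 1050 reads and -1.19 (-1.36 to -1.03), or -0.88 after trend removal. *Foxo4* (139 and 460 reads, -1.54) and *Pik3r3* (0 and 282 reads, at least 82.6-fold lower in Cd11c-active) had fewer reads. Past 2-fold were 39.2% of genes with 400 to 799 reads, the range of *Foxo4*, and 56.6% with 200 to 399, the range of *Pik3r3*, of which 10.1% had 0 reads in 1 library. The adaptor *Pik3ap1*, with 3938 and 4822 reads, had -0.11 (-0.17 to -0.04).

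*Stat5b*, a transcription factor activated by JAK kinases, had the fewest reads of the set, 673 and 921 (54.5 and 65.5 CPM), with a log2 ratio of -0.27 (-0.41 to -0.12). *Stat5a*, which holds 11.8% of the 50-base windows of *Stat5b*, had 149 and 260 reads and -0.61 (-0.92 to -0.32). Their sum, 822 and 1181 reads, gave -0.34 (-0.47 to -0.21), so the direction did not depend on how reads were divided between them. The JAK and STAT list had 14 genes with at least 20 reads, a median of -0.17, 2 past 2-fold higher and 0 lower, beside 23.3% and 21.6% of all genes with at least 20 reads. Among its 11 genes with at least 1000 reads, 1 was higher and 0 were lower, beside 5.43% and 4.14% at that depth. *Jak1* (4430 and 5780 reads) and *Stat3* (2713 and 3565) had -0.20 and -0.21. *Jak3*, the kinase paired with the common gamma chain, had 2358 and 1220 reads and 1.14 (1.04 to 1.24), above its span of -0.72 to 0.75, and 0.91 after trend removal. *Socs1*, an inhibitor of JAK kinases that cytokines induce, had 146 and 0 reads, at least 55.4-fold higher in Cd11c-active.

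Further along the receptor's other branches, *Yes1*, a SRC family kinase, had 417 and 190 reads and 1.32 (1.07 to 1.58). It lay inside the span of its read range (-1.84 to 2.38), where 39.2% of genes were past 2-fold. *Lyn*, the family member with the most reads (8984 and 10910), had -0.09 (-0.13 to -0.05). *Syk* (4186 and 4524) had 0.07 (0.01 to 0.14), which became -0.06 under library totals. Of the 11 genes in the SRC family and PLC gamma list, 2 were past 2-fold higher and 0 lower, with a median of -0.05. In the RAS and ERK list of 15, the same numbers were 2 and 0 with a median of 0.04. Both counts stand beside a background of 23.3% higher and 21.6% lower. Among genes with at least 1000 reads, 1 of 9 in the SRC family list and 2 of 12 in the RAS and ERK list were past 2-fold higher, beside 5.43%. Of the kinases in that list, *Map2k2* (MEK2) had 1393 and 601 reads and 1.40 (1.26 to 1.54), and *Mapk3* (ERK1) had 2112 and 1133 reads and 1.08 (0.98 to 1.19). After trend removal they were 1.07 and 0.75, and *Mapk3* was 0.95 under library totals. *Rps6ka1*, a kinase that ERK phosphorylates, had the most reads of this list (4089 and 5327) with -0.19 (-0.25 to -0.14), and *Nras* had 1806 and 2892 with -0.49 (-0.58 to -0.41).

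**Figure D3:**
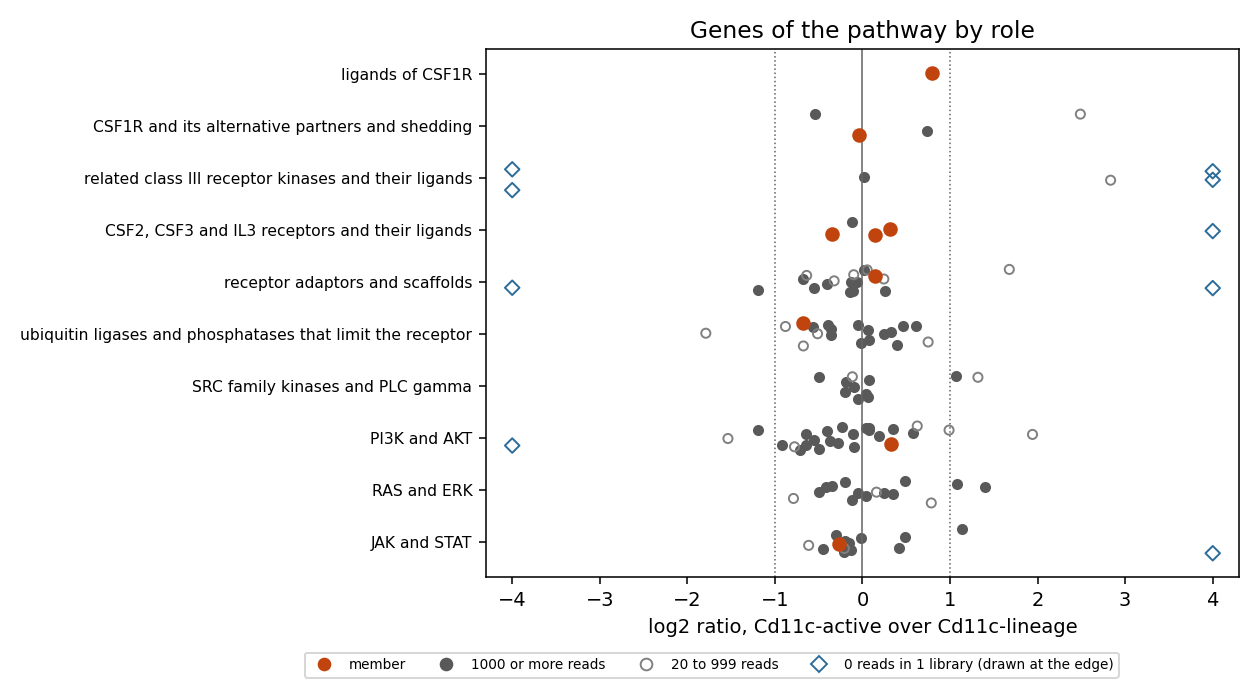
Log2 ratio of each pathway gene with at least 20 reads, by role (rows), with members filled in orange, other genes filled or open by depth, and diamonds at the edge for genes with 0 reads in 1 library; vertical position within a row carries no value. Most genes with at least 1000 reads lie inside the dotted 2-fold lines, 80 of 86, and the 9 diamonds are all genes with at most 282 reads.

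Over all 10 lists, 120 of the 136 genes had a row, each with at least 20 reads. Of the 120, 14 were past 2-fold higher and 8 lower (18.3%), beside 44.9% of all genes with at least 20 reads. Among the 86 with at least 1000 reads, 4 were higher, *Map2k2*, *Mapk3* and *Jak3* among them, and *Dok1* and *Rictor* were lower, which is 6.98% beside 9.57%. The median of the 120 was -0.09. Outside the 5th to 95th percentile of their read range were 7 of the 86, with 5 above, among them *Csf1*, *Map2k2*, *Mapk3* and *Jak3*, and 2 below, *Pik3r1* and *Ptprc*, where by construction 5% of all genes of a range lie below and 5% above.

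Of the receptor kinases closest to CSF1R, *Kit* had 43 and 0 reads and *Pdgfrb*, which marks pericytes, 92 and 0, while *Flt3* and *Pdgfra* had no row and were not analysed here. Of the 6 listed receptors and ligands of this class with at least 20 reads, 3 were past 2-fold higher (*Kit*, *Pdgfrb* and *Pdgfa*) and 2 lower (*Kitl* and *Pdgfc*), beside 44.9% of all such genes. The pericyte markers as a list, *Pdgfrb* itself included, summed to 62.8 and 2.21 CPM, the latter all from *Notch3* (0 and 31 reads). The part of pericytes in the *Pdgfrb* reads was not tested. Of the ligands, *Pdgfa* had 272 and 43 reads, a ratio of 2.83 (2.38 to 3.35), and *Pdgfb* 1894 and 2135, a ratio of 0.01 (-0.08 to 0.10). Past 2-fold were 56.6% of genes with 200 to 399 reads, the range of *Pdgfa*. *Kitl* had 0 and 59 reads and *Pdgfc* 0 and 76. *Adam17*, a protease that sheds CSF1R from the surface, had 3917 and 6495 reads and -0.54 (-0.60 to -0.49), or -0.44 after trend removal. Its list also held *Csf1r*, *Sdc4* (1224 and 833 reads, 0.74) and *Ptprz1* (71 and 14 reads, 2.49). Of these 4 genes, 1 was past 2-fold higher and 0 lower, beside 23.3% and 21.6% of all genes with at least 20 reads. Among genes with 50 to 99 reads, such as *Ptprz1*, 88.5% were past 2-fold. *Il3ra*, *Socs1*, *Kit*, *Pdgfrb*, *Kitl*, *Pdgfc*, *Ptprc*, *Sdc4* and *Ptprz1* were named after their values were seen. Of genes with 20 to 49 reads 87.5%, with 50 to 99 reads 71.0% and with 100 to 199 reads 37.9% had 0 reads in 1 library, so an empty library is common at the depth of the first 6.

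**Figure D4:**
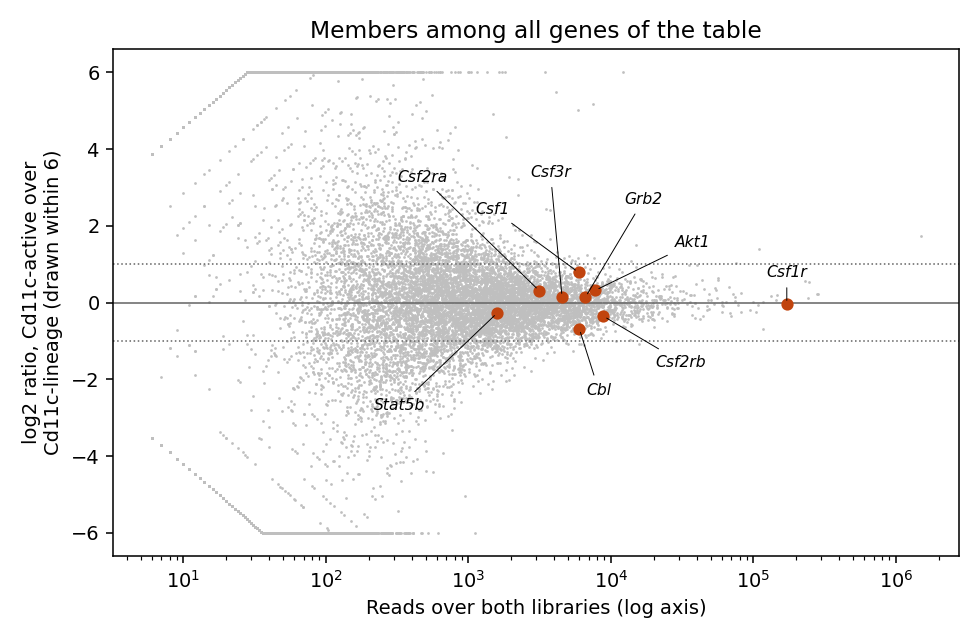
Log2 ratio (vertical axis, drawn within 6) against reads over both libraries (log axis) for every gene in the table, in grey, with the 9 members in orange; dotted lines mark 2-fold. The spread narrows with depth, and the members, at 1594 to 171527 reads, lie in its narrow part.

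Transcript length and GC content moved with the ratio in these libraries. Over genes with at least 1000 reads the fitted log2 ratio changed by -0.14 per doubling of transcript length and by 0.02 per percentage point of GC. With this trend removed, 4 members above 0 came close to it: *Csf2ra* to 0.03, *Akt1* to 0.03, *Csf3r* to 0.02 and *Grb2* to 0.01. *Csf1* went from 0.79 to 0.70, *Cbl* from -0.67 to -0.41, *Csf2rb* from -0.35 to -0.40, *Stat5b* from -0.27 to -0.28 and *Csf1r* from -0.04 to -0.11. No member changed sign under any of the 5 alternatives of scaling, prior count or trend.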

How the data were processed

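Bulk RNA sequencing of 2 libraries was re-analysed, 1 per group. The authors deposited raw counts per gene, and beside them log2 values (a fold change and a mean CPM), per the file headers; the log2 columns were not used. The submitters' processing notes name cutadapt 3.5, STAR 2.7.9a, featureCounts 1.6.3, edgeR 4.0.16 and GRCm39, without roles. Annotation, strand setting and duplicate handling are not given in the sources used here, so reads of overlapping or antisense genes may be shared. Per the labels' protocols, ribosomal RNA was depleted and libraries were stranded. No listed gene had under 6 reads in all.

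TMM factors (0.954 and 1.05) came from edgeR 4.0.16 in R 4.3.3. The log2 ratio is that of reads plus 0.5 over scaled library size, with exact Clopper-Pearson 95% intervals; shares have Wilson intervals. A count of 0 was set to 3 reads per library for bounds. Since the libraries carry no molecular identifiers that the labels name, reads are not independent molecules, and intervals and floors cover counting error only. No test across genes was made, since 1 library per group leaves no residual degrees of freedom. Genes counted as past a fold had at least 20 reads. Transcript length and GC are of the longest GENCODE M21 (GRCm38) transcript, matched for 99.6% of genes. Scaling alternatives included DESeq2 1.42.0 size factors. Ratios and intervals were run on simulated counts that held counting error only. The intervals assume the same, so this could not check them for other variation between libraries. Python 3.11.15, numpy 2.4.6, scipy 1.17.1, pandas 2.3.3 and matplotlib 3.10.9 were used.

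Members and lists were chosen with earlier results of these data known. Genes named beside the members are the 2 with the most reads of each list, those past 2-fold with at least 200 reads (at most 3 each way) and close relatives of members; a few of these are not reported here. No column of unmapped samples was present (0).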

Additional observations from a re-analysis of the deposited data

How the results depend on the processing

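With 1 library per group, leaving out a library was not possible. No paired analysis was possible because each group has 1 library and the labels carry no replicate numbers. No member was past 2-fold under library totals, DESeq2 size factors, TMM without ribosomal, mitochondrial, 7SK and 7SL genes, a prior count of 5 reads, trend removal, or either filter on reads (none, or at least 200). At 1.5-fold 2 members passed, 1 higher and 1 lower, the lower one (*Cbl*) not after trend removal (-0.41). Pathway genes past 2-fold numbered 22 (14 higher, 8 lower), and 12 (7 and 5) with at least 200 reads, where fewer genes are counted; at 1.5-fold they were 41, of which 20 lower. Over all genes, 5851 (3033 higher, 2818 lower) became 2353 (1262 and 1091) with at least 200 reads. Of the 38 named ratios, 26 left their counting interval under library totals, 22 after trend removal, 1 with a prior count of 5 and 0 under the other scalings. Library totals lowered every ratio by the same 0.14, so the 26 reflects the width of the intervals and thus mainly depth. No ratio past 2-fold changed sign. Depth limits genes under about 200 reads, of which many had 0 reads in 1 library.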
